A study of Homo sapiens with 6 samples.

Results

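The genes described are 41 interferon-stimulated genes and the STAT and IRF factors around them, in K562 cells with knockdown of METTL3 or METTL14. They were taken by symbol from a table of read counts over 61661 gene identifiers, in which all 41 were found. K562 is an established human line from the blast phase of chronic myeloid leukemia, grown from a pleural effusion. Its RNA was sequenced in 6 libraries, 2 each from shCTR, shMETTL3 and shMETTL14 cells. Cells of shCTR, given as wild type in the labels, carried a lentivirus with a nonsense sequence. Cells of shMETTL3 carried an shRNA against METTL3, the catalytic subunit of the m6A RNA methyltransferase, and cells of shMETTL14 had knockdown of METTL14, its RNA-binding partner. The paper's supplement lists a single METTL3 shRNA sequence, so effects of the sequence, the selected line and the target cannot be told apart. The shCTR and shMETTL3 lines were stable and puromycin-selected, so these controls also carry a lentiviral vector and went through the drug, and the construct behind shMETTL14 is not described in the sources used here. Nothing in the sources says that the 2 libraries of a group came from separate cultures, so p-values measure the spread between these libraries, which may be technical.

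Interferons bind receptors at the cell surface, and the JAK kinases on those receptors phosphorylate STAT proteins. After type I interferon, a complex that holds STAT2 and IRF9 binds the interferon-stimulated response element (ISRE) in promoters of genes that block virus entry, sense foreign RNA or degrade it. Double-stranded RNA or cytosolic DNA in the cell can switch on some of the same genes through IRF3 and IRF7. K562 cells are known to have lost the genes of the type I interferon cluster, while their receptor is kept. The comparisons ask how the basal level of this program stood in each knockdown line, and no interferon treatment is named in the labels or methods.

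The library totals lay between 19292574 and 20115304 counts. Each target was lower in its own knockdown, METTL3 with 1031 and 938 reads against 1788 and 1728 in the controls (log2 fold change -0.87), and METTL14 with 375 and 404 against 656 and 655 (log2 fold change -0.76). All 11 markers of K562 and erythroid cells were detected, with a summed level of 2166 to 2183 CPM (reads relative to the library total, scaled by edgeR's TMM factors) in shCTR, 2342 to 2410 in shMETTL3 and 2199 to 2217 in shMETTL14 cells. Markers of T and NK cells summed to 4.20 to 4.96, 6.11 to 7.18 and 5.30 to 6.00 CPM in the same order, markers of B cells to 2.61 to 2.73, 3.74 to 3.92 and 1.73 to 2.86 CPM, and those of dendritic cells had at most 3 reads each. The monocyte and granulocyte list summed to 42.8 to 44.4 CPM in shCTR, 16.0 to 17.4 in shMETTL3 and 60.5 to 66.2 in shMETTL14 cells; 6 of its 8 genes, among them CD14, CSF1R, MPO and ELANE, had at most 3 reads, and LYZ made up nearly all of the sum. A list of fibroblast and epithelial markers, led by EPCAM, stood at 57.2 to 58.2, 42.8 to 43.7 and 44.4 to 45.8 CPM, while COL1A1 in it went the other way, with 59 and 42 reads in shCTR, 112 and 110 in shMETTL3, and 71 and 65 in shMETTL14 cells. The part of these differences in the results was not tested. In bulk RNA, fewer cells that express a gene and less of its RNA per cell cannot be told apart.

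Of the 41 genes, 33 had enough reads to be tested, out of 17686 genes tested in all. These 33 are also the genes with more than 3 reads in at least 1 library, the count taken as the floor. The other 8 had at most 3 reads in every library, which at these depths is 0.150 to 0.157 CPM, and no difference in them was detectable. They were OAS1, OAS2 and OASL of the oligoadenylate synthetase family, MX1 and MX2, IFI44 and IFI44L, and the apoptosis-linked XAF1. OAS1 and OAS2 make the second messenger that activates RNase L, and the dynamin-like GTPases MX1 and MX2 block viral ribonucleoproteins. OAS3 stood apart from its family, with 264 and 276 reads in shCTR cells, although on chromosome 12 (GRCh38) it lies from 112938352 to 112973249 between OAS1, from 112906777 to 112933222, and OAS2, from 112978395 to 113011723. All 22 interferon ligand genes looked at, type I, II and III, had at most 2 reads in any library.

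Levels per length in shCTR cells, as CPM per kb of each gene's longest transcript, spread over more than 3 orders of magnitude. IFITM1, a membrane protein that blocks virus entry, was the highest at 237 ± 4.00 CPM per kb (SD, n = 2). BST2, or tetherin, which holds budding virions at the cell surface, followed at 110 ± 1.21, then IFITM3 at 71.7 ± 6.24 and the ubiquitin-like modifier ISG15 at 44.2 ± 2.79. IRF3, TRIM25 and STAT2 came next at 28.0 ± 3.18, 26.1 ± 1.40 and 24.1 ± 0.414 CPM per kb, and IRF3 and TRIM25 differed by less than the SD of IRF3. Both chains of the type I receptor were present, IFNAR1 at 11.5 ± 0.381 and IFNAR2 at 3.51 ± 0.554 CPM per kb, and the latter was the median of the 33 genes. The IFIT family of RNA-binding antiviral proteins lay in the lower part. IFIT3 stood at 1.17 ± 0.0263, IFIT2 at 0.638 ± 0.0250, IFIT1 at 0.622 ± 0.159 and IFIT5 at 0.121 ± 0.0788. IFI16, IFI27, RSAD2, ISG20 and GBP2, from 0.546 down to 0.133 CPM per kb, lay between IFIT1 and IFIT5. IRF9, the DNA-binding subunit that works with STAT2, was also low, at 0.725 ± 0.182 CPM per kb. An exon stretch of 444 bases belongs to both IRF9 and AL136295.5, on the same strand, which had at most 29 reads. How reads of that stretch were counted is uncertain, so the level of IRF9 may be understated. The same holds for IFNAR2, which shares 845 bases on its strand with AP000295.1 (0 reads) and 1803 bases with IL10RB-DT on the other. SAMHD1 shares 1068 bases with TLDC2 and IRF1 939 bases with C5orf56, both on the other strand. Where the median transcript length was used, the median level of the 33 genes was 10.6 in place of 3.51 CPM per kb. IFNAR1, whose longest transcript is 12.5 times its median one, stood at 144. The order below BST2 also changed. TRIM25 (191), IFNAR1 and IRF3 (97.6) then stood above IFITM3 (92.2), and STAT2 (88.8) above ISG15 (50.8).

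**Figure D1:**
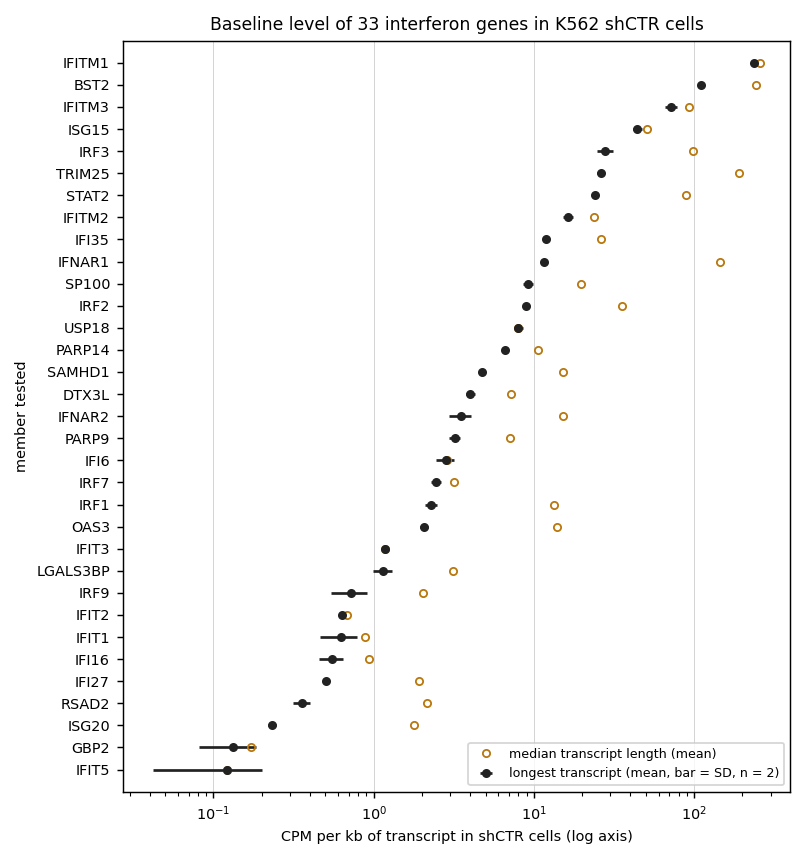
Level of the 33 tested genes in shCTR cells in CPM per kb on a log axis, with filled points and SD bars (n = 2) for the longest transcript and open points for the median transcript length. IFITM1 is at the top at 237 and IFIT5 at the bottom at 0.121 with the longest transcript, and IFNAR1 and TRIM25 are among the genes whose open points lie farthest from their filled ones.

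Promoter sequence was compared with the letters of the ISRE, since many of these genes were named for their response to interferon. RefSeq promoter windows (GRCh38.p14, 250 bases before to 50 after the annotated start) matched 30 of the 41 genes by symbol. The ISRE core was searched as GAAANNGAAA on both strands, so that it also reads TTTCNNTTTC, and overlapping matches were counted apart. It was present in 19 of the 30 genes (63.3%), against 3.57% of all 35116 windows, and 11 of them held at least 2 matches, against 0.259% of all windows. TTCNNNGAA, the letters of the gamma-activated site, was found in 9 of the 30 (30.0%), against 7.66% of all windows. Some genes have several windows, each of which could hold a match, while the background counts single windows. Genes without a window were IFIT2, OAS2, OASL, MX2, IFITM2, USP18, GBP2, IRF2, IRF3, IRF7 and IFNAR2.

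The stretch of 170 bases before the start is shown for 4 genes that were higher in shMETTL3 cells (IFIT1, IFIT3, OAS3, IFI6), 1 that was lower (IFITM3), 1 that did not pass the test (ISG15) and 1 within the floor of 3 reads (IFI44L), because all 7 hold the same element and went different ways. They read 5′ to 3′ in the direction of the gene, and capitals mark the ISRE core on either strand. IFIT1 is at chr10:89392453-89392622 on the plus strand, IFIT3 at chr10:89327827-89327996 (plus), OAS3 at chr12:112938304-112938473 (plus), IFI6 at chr1:27672193-27672362 (minus), IFITM3 at chr11:320861-321030 (minus), ISG15 at chr1:1013327-1013496 (plus) and IFI44L at chr1:78620278-78620447 (plus).
IFIT1: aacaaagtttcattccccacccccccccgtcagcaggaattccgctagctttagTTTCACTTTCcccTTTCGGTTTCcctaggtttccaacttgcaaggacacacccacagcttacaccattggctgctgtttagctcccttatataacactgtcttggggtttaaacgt
IFIT3: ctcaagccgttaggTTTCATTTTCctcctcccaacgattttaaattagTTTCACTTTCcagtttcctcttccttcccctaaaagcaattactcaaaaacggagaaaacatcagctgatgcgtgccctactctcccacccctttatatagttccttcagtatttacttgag
OAS3: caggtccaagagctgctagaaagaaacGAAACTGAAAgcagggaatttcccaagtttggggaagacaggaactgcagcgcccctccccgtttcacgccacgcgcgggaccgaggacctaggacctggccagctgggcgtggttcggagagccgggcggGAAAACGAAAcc
IFI6: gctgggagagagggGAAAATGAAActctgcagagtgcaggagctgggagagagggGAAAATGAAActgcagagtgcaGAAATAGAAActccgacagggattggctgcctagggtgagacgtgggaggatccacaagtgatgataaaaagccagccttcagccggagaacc
IFITM3: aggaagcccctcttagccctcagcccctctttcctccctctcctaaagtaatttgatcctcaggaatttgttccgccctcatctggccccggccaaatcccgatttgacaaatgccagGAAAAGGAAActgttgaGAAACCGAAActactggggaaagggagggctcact
ISG15: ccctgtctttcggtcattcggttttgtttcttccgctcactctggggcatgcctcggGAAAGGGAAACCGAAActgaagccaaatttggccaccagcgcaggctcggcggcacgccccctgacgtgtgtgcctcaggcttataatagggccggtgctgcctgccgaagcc
IFI44L: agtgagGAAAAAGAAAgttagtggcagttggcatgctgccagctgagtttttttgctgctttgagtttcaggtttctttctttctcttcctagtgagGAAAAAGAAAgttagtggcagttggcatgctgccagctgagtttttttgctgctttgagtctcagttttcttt

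The matches in IFIT1 start 116 and 103 bases before the start of the gene, those in IFITM3 52 and 35 bases before it, and the 2 in ISG15 overlap. Sorted by the test in shMETTL3 cells, the core was present in 7 of 8 genes that were higher, 2 of 4 that were lower, 7 of 13 that did not pass the test and 3 of 5 with at most 3 reads. A match is a description of the letters and not of bound protein.

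**Figure D2:**
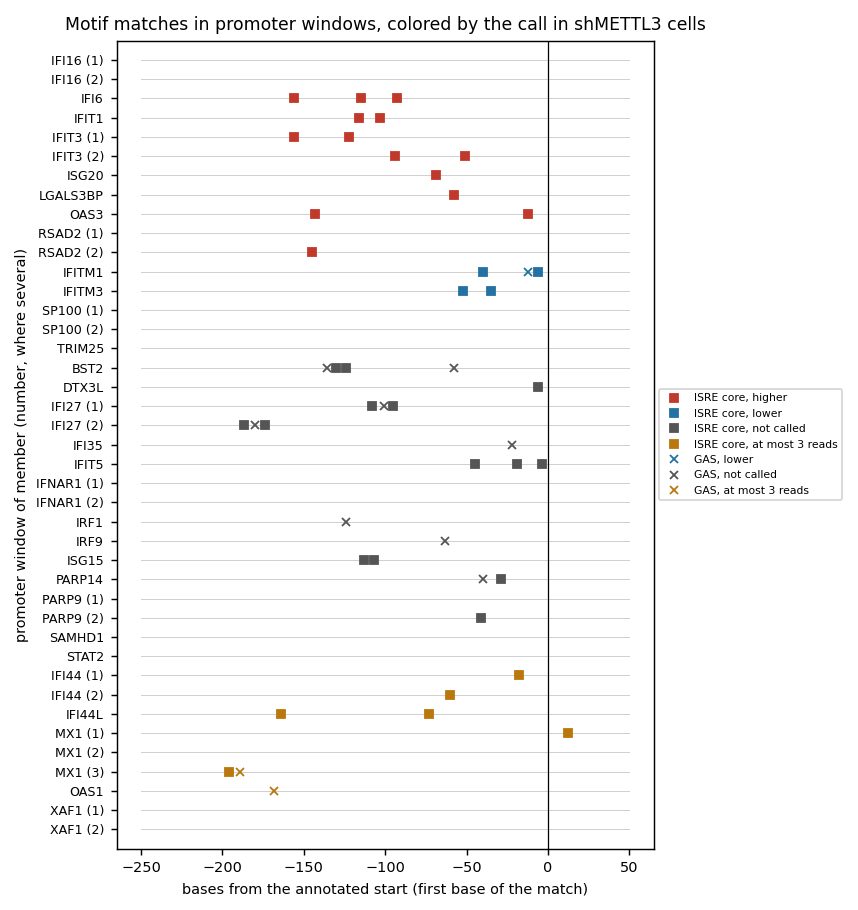
Positions of ISRE core matches (squares) and gamma-activated site matches (crosses) in the 41 promoter windows of 30 genes, in bases from the annotated start, with color for the result in shMETTL3 against shCTR cells. Matches fall mostly within 200 bases before the start. Those of the ISRE core are in genes of all 4 classes, and those of the gamma-activated site in all but the higher genes.

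In shMETTL3 cells, 17 of the 33 genes differed from shCTR, 12 higher and 5 lower. The higher ones were IFIT1, IFIT2, IFIT3, OAS3, ISG20, RSAD2, IFI16, IFI6, USP18, LGALS3BP, IRF3 and IRF7, and the largest difference was that of IFIT2, at 4.80 times its shCTR level. The lower ones were IFITM1, IFITM2 and IFITM3 together with TRIM25 and SP100. The share called, 51.5%, compares with 16.5% of all 17686 genes tested, of which 8.73% were higher and 7.73% lower. The median log2 fold change of the 33 genes was 0.17, that of all genes 0.003, and 24 of the 33 lay above 0. Scaling by library size alone gave a split of 14 higher and 3 lower. Without the shMETTL3 replicate 2 library, fewer of the 33 and also fewer of all genes were called.

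In shMETTL14 cells, RSAD2 and PARP14 were higher and IFIT1 and IFITM3 lower than in shCTR, 4 of 33 genes. This share, 12.1%, stands beside 6.69% of all genes tested, 3.43% higher and 3.26% lower. The median log2 fold change of the 33 was 0.06, and 9 of them had an unadjusted p under 0.05. With library size alone the split was 4 higher and 2 lower. Fewer of the 33 and also fewer of all genes were called without shCTR replicate 1 or without either shMETTL14 library in turn.

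Set directly against each other, shMETTL3 cells had higher levels of IFIT1, IFIT2, IFIT3, OAS3, IFI6, IFI27 and USP18 and lower levels of IFITM2, TRIM25 and SP100 than shMETTL14 cells. These 10 genes are 30.3% of the 33, and the background is 12.1% of all genes, 6.65% higher and 5.49% lower. Calls were fewer without shMETTL3 replicate 2 or without shMETTL14 replicate 1, among the 33 and among all genes. Both knockdowns share the shCTR libraries. Of the 3 genes called in both against shCTR, RSAD2 and IFITM3 had the same direction and IFIT1 opposite ones.

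**Figure D3:**
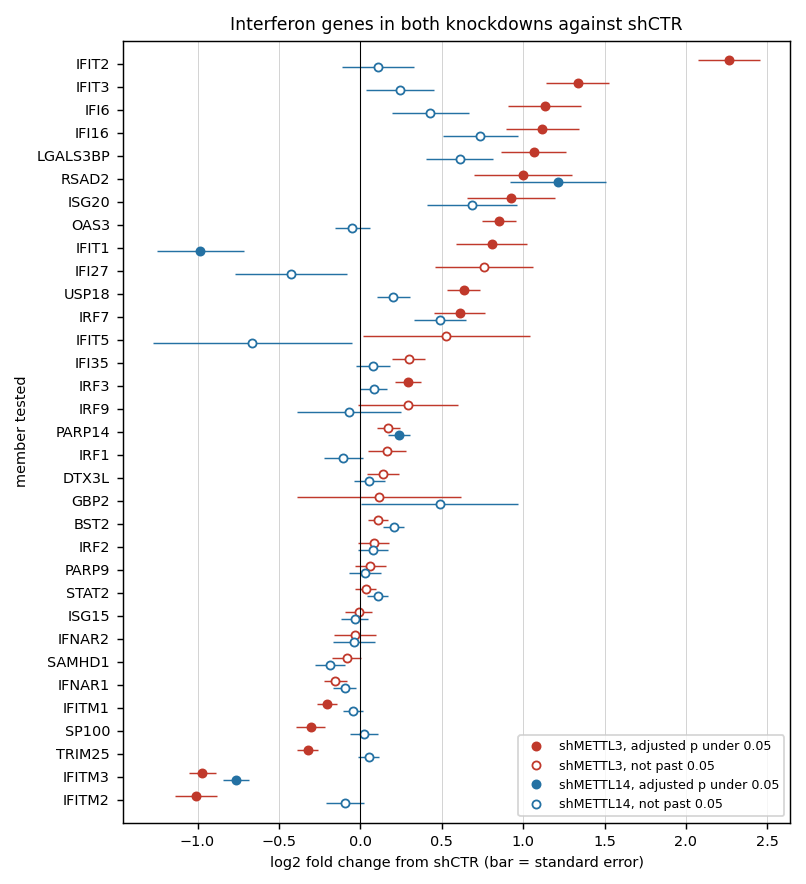
Log2 fold change from shCTR with its standard error for the 33 tested genes in shMETTL3 (red) and shMETTL14 (blue) cells, where filled points have an edgeR adjusted p under 0.05. IFIT2 is farthest to the right at 2.26 in shMETTL3 cells and near 0 in shMETTL14 cells, IFIT1 has filled points on both sides of 0, and IFITM3 has filled points on the left in both.

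The genes were sorted into groups by role with earlier results of these data known, so counts by group depend on that sorting. IFITM1, IFITM2, IFITM3, TRIM25 and SP100, all lower in shMETTL3 cells, were sorted elsewhere, although they too act in virus restriction or RNA sensing. As sorted, sensors and effectors of RNA and virus restriction were the group with the most calls in shMETTL3 cells. Of 14 genes, 9 were tested and 7 were higher, with a median log2 fold change of 0.92 over the 9, where 8.73% of all genes were higher. In shMETTL14 cells, 1 of the 9 was higher and 1 lower, with a median of 0.11 (all genes 3.43% higher and 3.26% lower). Between the knockdowns, 4 of the 9 were higher in shMETTL3 cells (all genes 6.65%).

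The 4 tested IFIT genes lie side by side on the plus strand of chromosome 10, from IFIT2 at 89283694 to the end of IFIT5 at 89421001. IFIT2 (ENSG00000119922), which binds AU-rich RNA, had 48 and 44 reads in shCTR, 212 and 240 in shMETTL3, and 56 and 44 in shMETTL14 cells. Both shMETTL3 libraries stood far above the other 4, which overlapped. Its level rose from 2.36 ± 0.0924 to 11.4 ± 0.826 CPM (SD, n = 2), a log2 fold change of 2.26 with a standard error (SE) of 0.191 (edgeR adjusted p = 8.74e-08). Against shMETTL14 the difference was 2.16 (SE 0.187, edgeR adjusted p = 1.10e-07), while shMETTL14 against shCTR gave 0.11 (SE 0.222, edgeR adjusted p = 0.837). IFIT2 overlaps an exon of LIPA, on the other strand, over 65 bases, and LIPA itself had at most 66 reads.

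IFIT3, which stabilizes IFIT1 on its RNA targets, had 57 and 57 reads in shCTR, 145 and 149 in shMETTL3, and 77 and 59 in shMETTL14 cells. Here too the shMETTL3 libraries lay above all others. The log2 fold change was 1.34 in shMETTL3 cells (SE 0.192, edgeR adjusted p = 7.35e-05) and 0.24 in shMETTL14 cells (SE 0.208, edgeR adjusted p = 0.559), and the difference between the knockdowns was 1.09 (SE 0.186, edgeR adjusted p = 0.000410).

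IFIT1, which binds the cap of RNA that lacks 2′-O methylation, had 67 and 45 reads in shCTR, 105 and 95 in shMETTL3, and 31 and 26 in shMETTL14 cells. The 3 groups did not overlap, with shCTR in the middle. It was higher in shMETTL3 cells by 0.81 on the log2 scale (SE 0.218, edgeR adjusted p = 0.0144) and lower in shMETTL14 cells, with a log2 fold change of -0.98 (SE 0.265, edgeR adjusted p = 0.0269). The knockdowns differed by 1.79 (SE 0.252, edgeR adjusted p = 3.66e-05). This last call held with each library left out in turn, but both calls against shCTR did not. The shMETTL3 call was lost without shCTR replicate 2 (0.57, edgeR adjusted p = 0.109) or shMETTL3 replicate 1 (0.72, edgeR adjusted p = 0.107). In shMETTL14 cells it was lost without shCTR replicate 1 (-0.69, edgeR adjusted p = 0.233), shMETTL14 replicate 1 (-1.11, edgeR adjusted p = 0.124) or shMETTL14 replicate 2 (-0.86, edgeR adjusted p = 0.195). IFIT5 had 5 to 16 reads in all 6 libraries and was called in no comparison, with log2 fold changes of 0.53 (SE 0.513) in shMETTL3 and -0.66 (SE 0.610) in shMETTL14 cells. The IFIT genes are paralogs, and how reads shared among them were counted is not known here.

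OAS3 (ENSG00000111331), the family member that responds to long double-stranded RNA, had 264 and 276 reads in shCTR, 504 and 491 in shMETTL3, and 275 and 252 in shMETTL14 cells. The shCTR and shMETTL14 libraries overlapped and the shMETTL3 libraries stood well above them. OAS3 was 1.80 times as high in shMETTL3 as in shCTR cells, a log2 fold change of 0.85 (SE 0.103, edgeR adjusted p = 1.12e-05), and 0.90 above shMETTL14 (SE 0.103, edgeR adjusted p = 5.59e-06). The value in shMETTL14 against shCTR was -0.05 (SE 0.110, edgeR adjusted p = 0.855).

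RSAD2, or viperin, an enzyme that makes a chain-terminating nucleotide, was the only one of the 33 genes called higher in both knockdowns, and DESeq2 called it in neither. It had 27 and 22 reads in shCTR, 62 and 38 in shMETTL3, and 53 and 62 in shMETTL14 cells. All 4 knockdown libraries were above both controls, and the shMETTL3 libraries were far apart. The log2 fold change was 1.00 in shMETTL3 (SE 0.302, edgeR adjusted p = 0.0251) and 1.21 in shMETTL14 cells (SE 0.297, edgeR adjusted p = 0.0141). The shMETTL3 call was lost without shCTR replicate 1 (1.13, edgeR adjusted p = 0.0629), shCTR replicate 2 (0.88, edgeR adjusted p = 0.0968) or shMETTL3 replicate 1 (0.59, edgeR adjusted p = 0.316). The call in shMETTL14 was lost without shCTR replicate 2 (1.10, edgeR adjusted p = 0.0559), shMETTL14 replicate 1 (1.32, edgeR adjusted p = 0.0620) or shMETTL14 replicate 2 (1.09, edgeR adjusted p = 0.128).

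IFI16, a sensor of nuclear and cytosolic DNA, had 50 and 38 reads in shCTR, 99 and 96 in shMETTL3, and 63 and 85 in shMETTL14 cells. The groups did not overlap, with shMETTL14 between the others. IFI16 was higher in shMETTL3 cells by 1.12 (SE 0.223, edgeR adjusted p = 0.00164), and its 0.74 in shMETTL14 cells did not pass the threshold (SE 0.230, edgeR adjusted p = 0.0583), which it did with library size alone (0.76, edgeR adjusted p = 0.0496) or with a trend for GC content and length removed (0.79, edgeR adjusted p = 0.0294). ISG20, an exonuclease for single-stranded RNA, had 27 and 24, 44 and 55, and 41 and 42 reads in the same order. It was 0.92 higher in shMETTL3 cells (SE 0.272, edgeR adjusted p = 0.0219). That call was lost without shCTR replicate 1 (0.98, edgeR adjusted p = 0.0665), shCTR replicate 2 (0.86, edgeR adjusted p = 0.0737) or shMETTL3 replicate 2 (0.77, edgeR adjusted p = 0.190). SAMHD1, which depletes nucleotides needed for reverse transcription, had 445 to 521 reads in all libraries and passed the test in no comparison, with log2 fold changes of -0.08 (SE 0.0891) in shMETTL3 and -0.19 (SE 0.0898) in shMETTL14 cells.

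**Figure D4:**
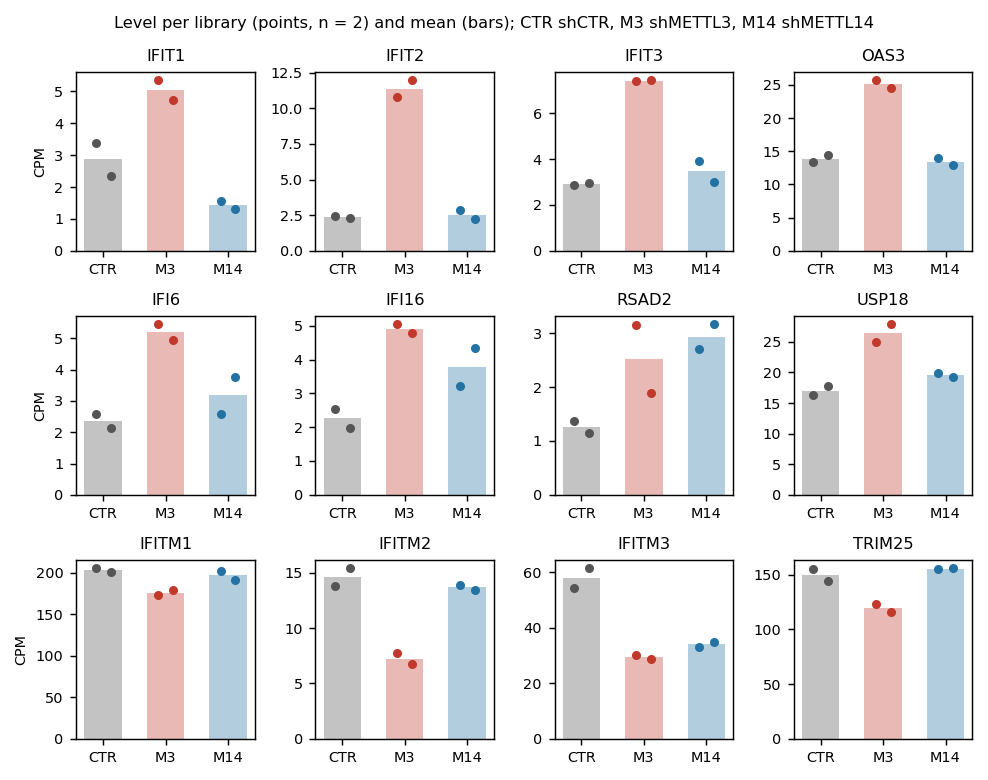
CPM of 12 genes in each library (points, n = 2 per group) with group means as bars, on axes from 0, for shCTR, shMETTL3 and shMETTL14 cells. In the panels of IFIT2, IFIT3 and OAS3 the shMETTL3 points stand above all others, in that of IFITM2 below all others, and in that of IFITM3 both knockdowns lie below shCTR.

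Membrane proteins, as sorted, went both ways in shMETTL3 cells, with 1 of 6 higher and 3 lower (all genes 8.73% higher and 7.73% lower). All 3 IFITM genes, which restrict virus entry by stiffening membranes, were among the lower ones. IFITM3 (ENSG00000142089, chr11:319669-327537, minus strand) had 1074 and 1177 reads in shCTR, 594 and 579 in shMETTL3, and 653 and 687 in shMETTL14 cells. Each knockdown library was below both controls. In shMETTL3 cells IFITM3 was at 51.0% of the shCTR level, a log2 fold change of -0.97 (SE 0.0815, edgeR adjusted p = 1.31e-07), and in shMETTL14 cells at 59.0%, a log2 fold change of -0.76 (SE 0.0803, edgeR adjusted p = 4.54e-06). Both calls held with each library left out in turn, and the difference between the knockdowns, -0.21, was not past the threshold (SE 0.0847, edgeR adjusted p = 0.125).

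IFITM2 (ENSG00000185201, chr11:307631-315272, plus strand) had 273 and 295 reads in shCTR, 153 and 135 in shMETTL3, and 273 and 264 in shMETTL14 cells. The low values were those of shMETTL3 alone. Its log2 fold change was -1.01 against shCTR (SE 0.129, edgeR adjusted p = 2.24e-05) and -0.91 against shMETTL14 (SE 0.130, edgeR adjusted p = 6.28e-05), while shMETTL14 against shCTR gave -0.09 (SE 0.119, edgeR adjusted p = 0.711). IFITM1, with 4055 and 3836 reads in shCTR, 3409 and 3583 in shMETTL3, and 3974 and 3749 in shMETTL14 cells, moved least. Its log2 fold change in shMETTL3 cells was -0.20 (SE 0.0604, edgeR adjusted p = 0.0248), a call lost with library size alone (-0.15, edgeR adjusted p = 0.10) and without shCTR replicate 1 (-0.19, edgeR adjusted p = 0.0529), shMETTL3 replicate 1 (-0.18, edgeR adjusted p = 0.190) or shMETTL3 replicate 2 (-0.22, edgeR adjusted p = 0.132). The IFITM genes are close paralogs, and in the annotation an exon stretch of 351 bases belongs to both IFITM1 and IFITM2, so how their reads were divided is uncertain.

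IFI6 (ENSG00000126709, chr1:27666061-27672218, minus strand), a mitochondrial and endoplasmic reticulum protein that counters apoptosis, had 51 and 41 reads in shCTR, 107 and 99 in shMETTL3, and 51 and 74 in shMETTL14 cells. Both shMETTL3 libraries stood above the other 4. IFI6 was higher there by 1.13 (SE 0.224, edgeR adjusted p = 0.00152), and its 0.43 in shMETTL14 cells was not past the threshold (SE 0.237, edgeR adjusted p = 0.316). The difference between the knockdowns was 0.70 (SE 0.212, edgeR adjusted p = 0.0334), and it lost its call without shMETTL3 replicate 1 (0.63, edgeR adjusted p = 0.188), shMETTL3 replicate 2 (0.78, edgeR adjusted p = 0.0943) or shMETTL14 replicate 1 (0.46, edgeR adjusted p = 0.350).

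IFI27 had 24 and 24, 44 and 39, and 14 and 22 reads, with shCTR between the knockdowns. Neither knockdown passed the threshold against shCTR, at 0.76 (SE 0.302, edgeR adjusted p = 0.0906) and -0.43 (SE 0.346, edgeR adjusted p = 0.524), but they differed from each other by 1.18 (SE 0.322, edgeR adjusted p = 0.0163). This call was lost without shMETTL3 replicate 1 (1.08, edgeR adjusted p = 0.122), shMETTL3 replicate 2 (1.29, edgeR adjusted p = 0.0545) or shMETTL14 replicate 1 (0.89, edgeR adjusted p = 0.196). BST2 had 2192 and 2157 reads in shCTR, 2425 and 2363 in shMETTL3, and 2485 and 2571 in shMETTL14 cells. Its log2 fold changes were 0.11 (SE 0.0630, edgeR adjusted p = 0.256) and 0.20 (SE 0.0629, edgeR adjusted p = 0.0571), and the latter passed the threshold with library size alone (0.23, edgeR adjusted p = 0.0310), with a trend for GC content and length removed (0.18, edgeR adjusted p = 0.0441) and without shCTR replicate 2 (0.21, edgeR adjusted p = 0.0433).

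ISG15 is a ubiquitin-like protein that is attached to other proteins in the interferon response. It had 656 and 695 reads in shCTR, 647 and 723 in shMETTL3, and 661 and 670 in shMETTL14 cells. The 3 groups overlapped fully, with log2 fold changes of -0.01 (SE 0.0831) and -0.03 (SE 0.0833). USP18 (ENSG00000184979, chr22:18149899-18177397, plus strand), the protease that removes ISG15 and damps signaling at IFNAR2, had 321 and 341 reads in shCTR, 491 and 559 in shMETTL3, and 391 and 378 in shMETTL14 cells. It was 1.55 times as high in shMETTL3 as in shCTR cells, a log2 fold change of 0.63 (SE 0.0996, edgeR adjusted p = 0.000208), and gave 0.20 in shMETTL14 cells (SE 0.102, edgeR adjusted p = 0.272). USP41, its near copy, had 1 to 5 reads.

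The difference in USP18 between the knockdowns, 0.43 (SE 0.0979, edgeR adjusted p = 0.00534), lost its call without shMETTL3 replicate 2 (0.36, edgeR adjusted p = 0.107), shMETTL14 replicate 1 (0.45, edgeR adjusted p = 0.0587) or shMETTL14 replicate 2 (0.41, edgeR adjusted p = 0.0826). TRIM25, the ubiquitin ligase linked to RIG-I activation, had 3073 and 2760 reads in shCTR, 2418 and 2333 in shMETTL3, and 3046 and 3053 in shMETTL14 cells. Both shMETTL3 libraries were below all others. Its log2 fold change there was -0.32 against shCTR (SE 0.0642, edgeR adjusted p = 0.00171), which lost its call without shMETTL3 replicate 2 (-0.28, edgeR adjusted p = 0.0608). Against shMETTL14 it was -0.38 (SE 0.0642, edgeR adjusted p = 0.000459), and that call held with each library left out. DTX3L, the ubiquitin ligase that works with PARP9, had 444 to 556 reads and passed the test in no comparison, with log2 fold changes of 0.14 (SE 0.0966) and 0.06 (SE 0.0972). Its annotated exons overlap those of PARP9 on the other strand over 139 bases, and whether strand was used in counting is not stated.

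Neither of the 2 ADP-ribosyltransferases was called in shMETTL3 cells, and PARP14, which acts on STAT6 and on viral targets, was higher in shMETTL14 cells. PARP14 had 1080 and 1083 reads in shCTR, 1235 and 1251 in shMETTL3, and 1236 and 1337 in shMETTL14 cells, so all 4 knockdown libraries exceeded both controls. Its log2 fold change was 0.17 in shMETTL3 (SE 0.0696, edgeR adjusted p = 0.101, and 0.0301 with library size alone) and 0.24 in shMETTL14 cells (SE 0.0694, edgeR adjusted p = 0.0448). The latter call was lost without each of 5 libraries in turn, namely shCTR replicate 1 (0.21, edgeR adjusted p = 0.120), shMETTL3 replicate 1 (0.24, edgeR adjusted p = 0.0899), shMETTL3 replicate 2 (0.24, edgeR adjusted p = 0.0884), shMETTL14 replicate 1 (0.29, edgeR adjusted p = 0.132) and shMETTL14 replicate 2 (0.18, edgeR adjusted p = 0.388). PARP9 had 390 to 454 reads in the 6 libraries, with log2 fold changes of 0.06 (SE 0.0958) and 0.03 (SE 0.0962).

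Among the other induced genes, LGALS3BP, a secreted glycoprotein that binds galectins, had 49 and 58 reads in shCTR, 116 and 113 in shMETTL3, and 76 and 89 in shMETTL14 cells. The groups were in separate ranges, with shMETTL14 in the middle. It was higher in shMETTL3 cells by 1.07 (SE 0.199, edgeR adjusted p = 0.000953), and its 0.61 in shMETTL14 cells was not past the threshold (SE 0.206, edgeR adjusted p = 0.0833). SP100, a scaffold of nuclear bodies that silence viral DNA, had 740 and 648 reads in shCTR, 602 and 543 in shMETTL3, and 699 and 722 in shMETTL14 cells. It was lower in shMETTL3 cells, at -0.31 against shCTR (SE 0.0877, edgeR adjusted p = 0.0210) and -0.33 against shMETTL14 (SE 0.0876, edgeR adjusted p = 0.0169). The first call was lost with library size alone (-0.25, edgeR adjusted p = 0.0558) and without shCTR replicate 1 (-0.23, edgeR adjusted p = 0.129) or shMETTL3 replicate 2 (-0.22, edgeR adjusted p = 0.285), and the second without shMETTL3 replicate 2 (-0.24, edgeR adjusted p = 0.270), shMETTL14 replicate 1 (-0.35, edgeR adjusted p = 0.0950) or shMETTL14 replicate 2 (-0.30, edgeR adjusted p = 0.166).

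IFI35 had 293 and 278 reads in shCTR, 355 and 361 in shMETTL3, and 303 and 306 in shMETTL14 cells. All 4 knockdown libraries exceeded both controls, but its 0.30 in shMETTL3 cells missed the threshold (SE 0.103, edgeR adjusted p = 0.0540), which it passed with library size alone (0.35, edgeR adjusted p = 0.0231). GBP2, a guanylate-binding protein induced most by interferon gamma, had 7 to 14 reads in every library and no call, with log2 fold changes of 0.11 (SE 0.504) and 0.49 (SE 0.482).

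Of the 6 transcription factors, IRF3 and IRF7 were higher in shMETTL3 cells and none was called in shMETTL14 cells or between the knockdowns. Over all genes tested, 16.5% were called in shMETTL3 cells, 6.69% in shMETTL14 cells and 12.1% between the knockdowns. At these shares, 6 genes are too few for their counts to tell the comparisons apart. IRF7, which amplifies interferon production, had 104 and 91 reads in shCTR, 151 and 153 in shMETTL3, and 138 and 138 in shMETTL14 cells. All knockdown libraries were above both controls. Its log2 fold change was 0.61 in shMETTL3 (SE 0.156, edgeR adjusted p = 0.0104) and 0.49 in shMETTL14 cells (SE 0.158, edgeR adjusted p = 0.0700). The shMETTL3 call was lost without shMETTL3 replicate 1 (0.61, edgeR adjusted p = 0.0633) or shMETTL3 replicate 2 (0.62, edgeR adjusted p = 0.0710), and with a trend for GC content and length removed (0.44, edgeR adjusted p = 0.0579).

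IRF3, the factor that sensors of viral RNA and DNA activate, had 1460 and 1662 reads in shCTR, 1801 and 2111 in shMETTL3, and 1730 and 1609 in shMETTL14 cells. It was higher in shMETTL3 cells by 0.29 (SE 0.0815, edgeR adjusted p = 0.0176), a call lost without shCTR replicate 1 (0.18, edgeR adjusted p = 0.170) or shMETTL3 replicate 2 (0.19, edgeR adjusted p = 0.290). Between the knockdowns, IRF3 and IFITM1 passed the threshold without shCTR replicate 1, with 0.21 (edgeR adjusted p = 0.0358) and -0.16 (edgeR adjusted p = 0.0336), or without shCTR replicate 2, with 0.21 (edgeR adjusted p = 0.0337) and -0.16 (edgeR adjusted p = 0.0335). The exons of IRF3 overlap those of BCL2L12, on the other strand, over 716 bases, and BCL2L12 had up to 2347 reads, so part of the reads of either may belong to the other.

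STAT2 had 1494 to 1676 reads, IRF2 394 to 449 and IRF1 211 to 264, and none passed the test. Their log2 fold changes in shMETTL3 cells were 0.03 (SE 0.0643), 0.08 (SE 0.0949) and 0.16 (SE 0.119) in that order. IRF9, with 21 to 34 reads, gave 0.29 (SE 0.306) in shMETTL3 and -0.07 (SE 0.319) in shMETTL14 cells. The receptor chains were called in no comparison. IFNAR1 had 1430 and 1322, 1184 and 1343, and 1269 and 1326 reads, with log2 fold changes of -0.15 (SE 0.0712) and -0.10 (SE 0.0711), and IFNAR2 had 262 to 320 reads, with -0.03 (SE 0.129) and -0.04 (SE 0.129).

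Other genes of the pathway were described from lists written beside the 41. Of 7 JAK and STAT genes tested, JAK2 alone was called against shCTR, lower in shMETTL3 cells (-0.38, SE 0.0668, edgeR adjusted p = 0.000661). Of all genes, 7.73% were lower in shMETTL3 than in shCTR cells, and 5.49% lower than in shMETTL14 cells. JAK2 and STAT6 were lower in shMETTL3 than in shMETTL14 cells, with -0.27 (SE 0.0669, edgeR adjusted p = 0.00990) and -0.33 (SE 0.0629, edgeR adjusted p = 0.00145).

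Among 9 negative regulators, 3 were higher in shMETTL3 and 2 in shMETTL14 cells and none was lower, where 8.73% and 3.43% of all genes were higher. The median log2 fold changes of the 9 were -0.0001 and 0.18, those of all genes 0.003 and -0.0001. SOCS1, which inhibits JAK kinases, had 208 and 269 reads in shCTR, 367 and 366 in shMETTL3, and 450 and 469 in shMETTL14 cells. It was higher by 0.59 (SE 0.122, edgeR adjusted p = 0.00234) and 0.93 (SE 0.119, edgeR adjusted p = 4.30e-05). CISH, a STAT5 target that acts on cytokine receptors, was higher by 0.51 (SE 0.0628, edgeR adjusted p = 1.46e-05) and 0.44 (SE 0.0629, edgeR adjusted p = 0.000145). SOCS3 was 0.54 higher in shMETTL3 cells (SE 0.128, edgeR adjusted p = 0.00662), and SOCS2 lower in shMETTL3 than in shMETTL14 cells (-0.23, SE 0.0552, edgeR adjusted p = 0.00834).

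Of 3 tested receptor chains for interferon gamma and lambda, IFNGR1, the ligand-binding chain for interferon gamma, was called in all 3 comparisons. It had 608 and 563 reads in shCTR, 503 and 448 in shMETTL3, and 719 and 739 in shMETTL14 cells. The groups did not overlap, with the controls in the middle. The log2 fold change was -0.33 in shMETTL3 (SE 0.0898, edgeR adjusted p = 0.0160) and 0.30 in shMETTL14 cells (SE 0.0863, edgeR adjusted p = 0.0389), with a difference of -0.63 between them (SE 0.0882, edgeR adjusted p = 5.49e-05).

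Nucleic acid sensors and their adaptors had 2 of 11 tested genes higher in shMETTL3 cells, none in shMETTL14 cells and none between the knockdowns, and their count in shMETTL3 cells is near the share of all genes called, 16.5%. They were IKBKE, a kinase for IRF3 and IRF7 (0.82, SE 0.236, edgeR adjusted p = 0.0198), and MAVS, the mitochondrial adaptor of RNA sensors (0.25, SE 0.0609, edgeR adjusted p = 0.00806). The RNA sensors RIGI and IFIH1 had 199 to 242 and 325 to 416 reads, with log2 fold changes in shMETTL3 cells of -0.11 (SE 0.127) and 0.15 (SE 0.104). Of 4 further IRF factors none had enough reads for the test, with at most 10.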

How the data were processed

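RNA-seq of K562 cells was analyzed in 6 libraries, grouped by the submitters' labels. The authors captured mRNA on oligo(dT) beads, sequenced it on the HiSeq platform and deposited whole-number counts per gene, not normalized; the submitters' processing notes name HTSeq 0.6.1 and hg38, and the strand setting is not given in the sources used here. Of 61661 identifiers, 986 lie outside the annotation and hold 0.635% to 0.703% of a library's reads. Symbols, positions and lengths came from GENCODE (GRCh38) and a gene name table.

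Counts were analyzed in R 4.3.3 with edgeR 4.0.16 (limma 3.58.1): 17686 genes passed filterByExpr (minimum count 10), scaling was by TMM, and quasi-likelihood tests came from a single model of the 6 libraries, with p-values adjusted by Benjamini-Hochberg over all genes and a threshold of 0.05. TMM takes most genes as unchanged. The floor was set at 3 reads per library, and floors cover counting error only. The steps were tested on simulated counts. The mean chi-square per gene between replicates was 2.55 to 5.30, above sampling noise.

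Alternatives were DESeq2 1.42.0 and its size factors, library size alone, no filter on low counts, a replicate block, a fit of the compared groups only, a GC and length trend removed with mgcv 1.9.3, and each library left out in turn. Leaving out a library leaves its group with 1, which is then assumed to vary like the other groups. The genes and all lists were chosen with earlier results of these data known. All 41 genes are named, and of each further list, per comparison, up to 5 called genes per direction with the largest change and at least 10 counts in every library, together with genes given as background. The result of 1 gene that belongs to these lists was left out of the text.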

Additional observations from a re-analysis of the deposited data

Results flagged for a closer look

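IFIT1 differed between the knockdowns, with values on opposite sides of shCTR. Its log2 fold change from shCTR was 0.81 in shMETTL3 and -0.98 in shMETTL14 cells, and the difference between the knockdowns, tested in the same edgeR fit, was 1.79 (SE 0.252, edgeR adjusted p = 3.66e-05, by Benjamini-Hochberg over all genes). The difference held under all alternatives, but both calls against shCTR were lost with DESeq2 (adjusted p = 0.127 and 0.126) and with some libraries left out. Reads were 105 and 95 against 31 and 26, with no overlap. Groups of 2 libraries are too small to be searched for single libraries far from the rest.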

How the results depend on the processing

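The 33 genes were compared again under 13 alternatives; IFIT5, GBP2, IFI27 and IRF9 had an adjusted p under 11 or 12 of them in some comparisons. Of 31 calls over the 3 comparisons, 16 held under all of them and 15 were lost under at least 1, none with a change of direction; of 68 results that were not called, 6 passed the threshold under some alternative. Called under all alternatives were, in shMETTL3 against shCTR, IFIT2, IFIT3, OAS3, IFI16, IFITM2, IFITM3, IFI6, USP18 and LGALS3BP, in shMETTL14 against shCTR IFITM3, and between the knockdowns IFIT1, IFIT2, IFIT3, OAS3, IFITM2 and TRIM25. The number of genes called in shMETTL3 against shCTR, 17, was 12 with DESeq2 and 11 to 17 with each library left out. In shMETTL14 against shCTR, 4 became 1 with DESeq2, 2 without the filter on low counts, and 1 to 4 with each library left out. Between the knockdowns, 10 became 7 with DESeq2 and 6 to 12 with each library left out. In most of these fits, calls over all genes were fewer too. The cause of these losses was not tested. DESeq2 ended the calls of IFIT1, ISG20, RSAD2, SP100 and IRF7 in shMETTL3 of IFIT1, RSAD2 and PARP14 in shMETTL14 cells against shCTR, and of IFI6, IFI27 and SP100 between the knockdowns. Same-numbered libraries deviated together only weakly (r from -0.0200 to 0.0614), so the numbers were not taken as pairs; with the replicate block, 17, 5 and 10 genes were called in the 3 comparisons, BST2 being gained in shMETTL14 cells (edgeR adjusted p = 0.0412). Over all genes, DESeq2 called 774 higher and 978 lower in shMETTL3 against shCTR where edgeR called 1544 and 1368, 325 and 388 in shMETTL14 where edgeR called 607 and 577, and 623 and 620 between the knockdowns where edgeR called 1177 and 971. The median level per length was 10.6 with the median transcript length and 3.51 CPM per kb with the longest. For genes with few reads, such as RSAD2, ISG20, IFI27, IRF9, IFIT5 and GBP2, depth limits what could be detected.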

Other observations

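A further list of interferon-stimulated genes, written beside the 41 with earlier results known, had 38 genes tested, of 50 in the table. In shMETTL3 cells 6 were higher and 1 lower than in shCTR, a share near the 16.5% of all genes called (8.73% higher, 7.73% lower). APOL6 had 218 and 191 reads in shCTR, 327 and 343 in shMETTL3, and 279 and 274 in shMETTL14 cells, and was higher in shMETTL3 cells by 0.68 (SE 0.113, edgeR adjusted p = 0.000347). SHFL, an inhibitor of viral translation and frameshifting, was higher by 0.47 (SE 0.139, edgeR adjusted p = 0.0251) and HELZ2 by 0.33 (SE 0.0696, edgeR adjusted p = 0.00265). CNP and APOL1 were higher by 0.28 and 0.26, and GBP5 was lower (-0.90, SE 0.210, edgeR adjusted p = 0.00568).

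In shMETTL14 cells 6 of the 38 were higher and 2 lower, where 3.43% of all genes were higher and 3.26% lower. The paralogs SAMD9 and SAMD9L, which restrict poxvirus translation, were higher by 0.71 (SE 0.140, edgeR adjusted p = 0.00356) and 0.91 (SE 0.242, edgeR adjusted p = 0.0246), with SAMD9 at 294 and 282 reads against 207 and 143 in the controls. CMPK2, which lies beside RSAD2 on chromosome 2, was higher by 0.45 (SE 0.101, edgeR adjusted p = 0.00955), and its annotated exons overlap those of RSAD2 on the other strand over 14 bases. APOL1 and APOL6 were higher here too, by 0.56 and 0.42, against the same shCTR libraries. PSMB9, a subunit of the immunoproteasome, had 303 and 317 reads in shCTR, 324 and 401 in shMETTL3, and 183 and 208 in shMETTL14 cells, so the shMETTL14 libraries stood below all others. It was lower in shMETTL14 cells (-0.68, SE 0.126, edgeR adjusted p = 0.00199) and differed between the knockdowns by 0.87 (SE 0.124, edgeR adjusted p = 6.42e-05). GBP4 was lower in shMETTL14 cells as well (-1.02, SE 0.242, edgeR adjusted p = 0.0121). Between the knockdowns, SHFL, TAP1, the peptide transporter for antigen presentation, HELZ2 and SHISA5 were also higher in shMETTL3 cells, by 0.54, 0.33, 0.29 and 0.21, and APOL1 and ZC3HAV1 were lower (-0.30 and -0.25).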
